A study of Bos taurus with 4 samples.

Results

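The fibroblast growth factor (FGF) pathway was followed by 10 genes in bovine blastocysts that developed from slow-frozen or control morulae. They were the ligands FGF2 and FGF4, the receptors FGFR1, FGFR2, FGFR3 and FGFR4, and SPRY2, SPRY4, DUSP6 and ETV4, which the pathway's kinase ERK switches on. The genes were chosen by symbol, and all 14 probes that the annotation of the array pairs with these 10 genes were taken, of 43794 probes on the array and 21790 that carry a gene symbol for 15216 genes.

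FGF signalling sorts the cells of the blastocyst. In the mouse, epiblast precursors of the inner cell mass secrete FGF4, which binds FGFR1 and FGFR2 together with heparan sulfate on neighbouring cells and, through RAS, RAF, MEK and ERK, directs them to the hypoblast; in cattle, added FGF and blocking of MEK likewise shift inner cells towards and away from hypoblast. The same cascade switches on its own brakes, the Sprouty proteins and the ERK phosphatase DUSP6, so their transcripts are read as a gauge of how active ERK is.

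All embryos were bovine and produced in vitro, the breed being given as beef. Abattoir oocytes were matured, fertilised and grown for 6 days to compact morulae, which were divided at random. Morulae of the slow-frozen group were equilibrated in 1.5 M glycerol, seeded with ice at -7 °C, cooled at 0.5 °C per minute to -35 °C, plunged into liquid nitrogen, warmed and cultured on to expanded blastocysts. Morulae of the control group were never frozen and were cultured for another 24 h, although the labels mark both groups as cryopreserved. RNA came from pools of 7 expanded blastocysts at day 7 by the labels, while the methods describe a range of pool sizes and a later day. Each of 4 arrays held 1 slow-frozen and 1 control pool from separate fertilisation cycles, with the slow-frozen pool in the dye Cy5 on arrays 1 and 2 and in Cy3 on arrays 3 and 4. A pool mixes trophectoderm, epiblast and hypoblast, so fewer cells of a type and less RNA per cell cannot be told apart.

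A reading is the median signal of a spot minus its local background in 1 dye channel, so a probe has 8 readings, 4 per group. It counted as above the limit when it was higher than 95% of the 153 negative control spots in that channel. These limits ranged from 44.8 to 173.2 in Cy5 and from 156.4 to 173.8 in Cy3, and between 24638 and 31529 probes exceeded them per channel. A reading in multiples of the limit therefore depends on its channel, and control readings on array 4 are large multiples because the Cy5 limit there was the lowest. Effects were taken only from ratios within an array, as log2 of slow-frozen over control after loess normalization. Across tested probes the ratios of any pair of arrays correlated between -0.28 and 0.04, and 0 of 30473 tested probes passed the adjustment. Blastocyst markers were present in both groups: of 48 readings per group for trophectoderm genes, 46 cleared the limit in slow-frozen pools and 46 in control pools, and of 44 for inner cell mass and epiblast genes, 39 and 36 did. Markers of cumulus and granulosa cells were read too, with 26 of 40 readings above the limit in slow-frozen and 25 in control pools. Of those 10 genes CYP19A1, PTX3 and COL1A2 were above it in all 8 readings, and AMH and FOXL2 in 0.

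The 14 probes ranged from readings at the detection limit to readings well above it. Of 112 readings of the 14 probes, 70 lay above the limit, or 62.5%. The probes of SPRY2 and DUSP6, 1 probe of FGFR2 and both probes of FGFR4 read above it in all 8 readings, so these 4 genes were measured in every pool of both groups. That was 5 of 14 probes, beside 43.9% of all probes and 51.3% of annotated ones. A further 3 probes, for FGFR1, SPRY4 and ETV4, read above the limit in 6 of 8 readings. These 8 probes of 7 genes were tested, since a test needed at least 4 readings above the limit, a condition that 69.6% of all probes and 75% of annotated probes met. The probes of both ligands and of FGFR3, and the second probes of FGFR1 and FGFR2, fell short of it. By gene, 7 of the 10 members were tested, beside 11834 of 15216 genes with a symbol on the array.

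**Figure D1:**
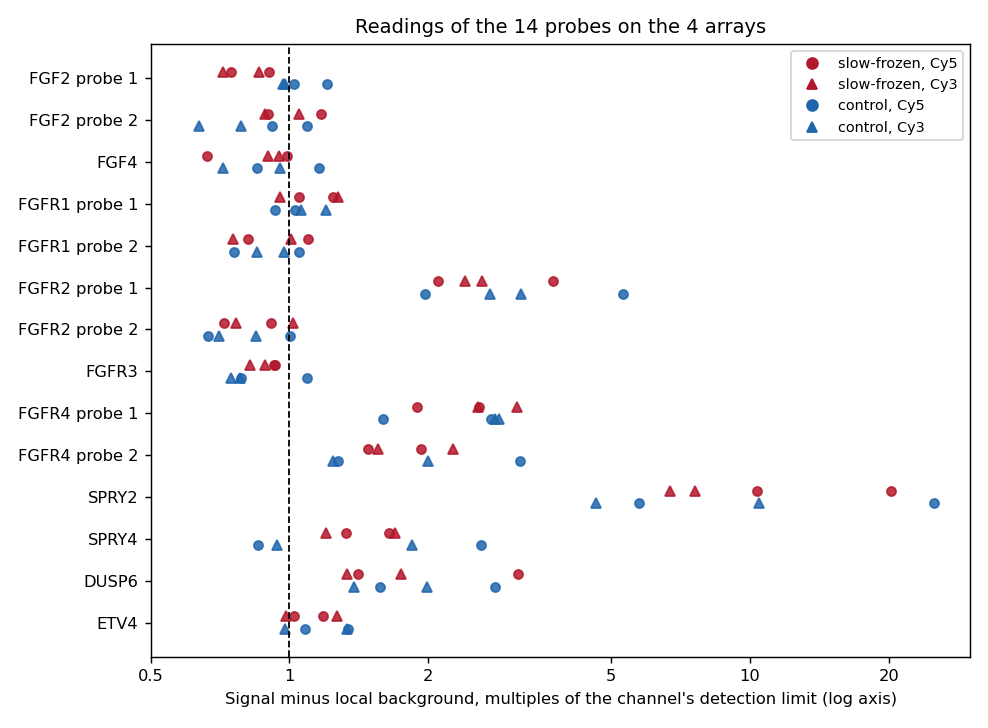
Readings of the 14 probes in the 4 slow-frozen (red) and 4 control (blue) pools, as signal minus local background in multiples of the detection limit of the channel, on a log axis. Circles are Cy5 and triangles Cy3, the dashed line marks the limit, and SPRY2 stands farthest above its limit, at 4.62 to 25.0.

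No member of the pathway differed between slow-frozen and control pools by the test. After adjustment over all 30473 tested probes, 0 of 8 member probes were called, beside 0% of all probes, and the adjusted p was 0.9999 for each in limma. At an unadjusted p under 0.05 the count was again 0 of 8, beside 1.88% of all probes and 1.89% of all genes taken by their brightest probe. A looser rule, a fold of at least 1.5 with an unadjusted p under 0.05, also called 0 of 8, beside 0.413% of all probes (0.282% higher and 0.131% lower in slow-frozen pools, 86 and 40 probes, which became 27 and 501 when arrays were centred on their median in place of loess). The fitted log2 ratios of the members ran from -0.19 for FGFR2 to 0.20 for SPRY2, with standard errors of 0.14 to 0.25. Of the 7 tested genes, 4 had a ratio above 0 and 3 below it, beside 48.9% of all genes above 0, and the 4 became 2 under median centring and under mean spot signals. Their median was 0.00, and that of all 11834 tested genes was also 0.00.

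The 95% intervals bound the size of change on these 4 arrays under the main settings, whose background correction draws ratios of dim probes towards 0. For 7 of the 8 probes the interval lay inside 1.5-fold in either direction. SPRY2 was the exception, its interval running from 0.755-fold to 1.76-fold. A fit without the term for dye left 6 of 8 intervals inside 1.5-fold, the others being those of SPRY2 and FGFR4 probe 1. Ratios and standard errors also moved with the processing. FGFR2 was -0.34 ± 0.18 (SE) under median centring and SPRY4 0.16 ± 0.24 under plain background subtraction, settings for which no interval was taken. None of the tested member probes had the same sign on all 4 arrays, 0 of 8 beside 7.86% of all tested probes.

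**Figure D2:**
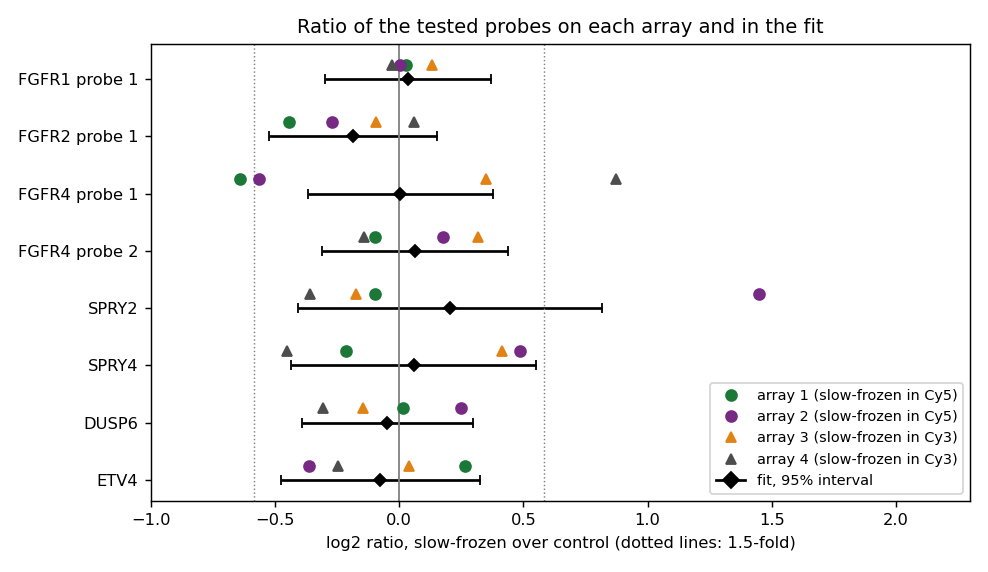
Ratio of each tested member probe on arrays 1 to 4 (coloured points, circles with the slow-frozen pool in Cy5 and triangles in Cy3) and the fitted ratio with its 95% interval (black), as log2 of slow-frozen over control. Dotted lines mark 1.5-fold, and all fitted ratios lie between -0.19 and 0.20, those of both FGFR4 probes, SPRY2 and SPRY4 turning sign under median centring or mean spot signals.

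The ligands sat at the detection limit. FGF4, the ligand that epiblast cells send to the hypoblast, had readings of 0.987, 0.663, 0.897 and 0.949 times the limit in the slow-frozen pools of arrays 1 to 4. In the control pools it read 0.953, 0.718, 0.849 and 1.16 times the limit. A single control pool thus cleared the limit, no slow-frozen pool did, and the groups overlapped. The array ratios of FGF4, at 0.02, -0.07, -0.04 and -0.16, stayed close to 0. Without the filter on detection, limma gave -0.06 ± 0.11 (SE, 4 arrays, adjusted p = 0.9999), and no bound on a fold could be set.

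FGF2, a ligand known in cattle to stimulate interferon tau secretion by trophectoderm, had a pair of probes that went opposite ways. Probe 1 read 0.904, 0.746, 0.859 and 0.719 times the limit in slow-frozen pools and 0.978, 0.968, 1.02 and 1.21 times in control pools. Every slow-frozen reading thus lay below every control reading, and probe 1 was the only one of the 14 whose groups did not overlap. Non-overlapping readings were found in 0.539% of all probes, 0.206% with the slow-frozen pools lower, and 0.225% among the probes that fell short of the filter. Its ratio was below 0 on all 4 arrays, at -0.17, -0.29, -0.15 and -0.53, as was that of 4.43% of all probes. The fit without the filter gave -0.28 ± 0.12 (SE, 4 arrays) with an adjusted p of 0.9999 in limma. Of the 4 control readings 2 were above the limit, and of the 4 slow-frozen readings 0 were. As signal in scanner units, which differ by dye, the groups overlapped, at 98, 54, 137 and 125 in slow-frozen and 153, 166, 177 and 54 in control pools.

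Probe 2 of FGF2 did not repeat this order. It read 1.17, 0.898, 0.885 and 1.05 times the limit in slow-frozen pools against 0.786, 0.636, 0.918 and 1.09 in control pools. Both groups straddled the limit and overlapped. Its ratios were 0.61, 0.49, -0.08 and 0.04, higher on both arrays with the slow-frozen pool in Cy5 than on the others, and the unfiltered fit gave 0.26 ± 0.11 (SE, 4 arrays, adjusted p = 0.9999 in limma). The files do not say which part of the FGF2 transcript either probe reads.

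Among the receptors, FGFR2 was measured in every pool. In the mouse FGFR2 transmits FGF signals in hypoblast precursors and trophectoderm. Its probe 1 read 2.10, 3.74, 2.62 and 2.40 times the limit in slow-frozen pools and 2.72, 3.18, 1.97 and 5.29 times in control pools, and the groups overlapped. The ratios of -0.44, -0.27, -0.09 and 0.06 put the slow-frozen pool below the control pool on 3 of 4 arrays. The mean was -0.36 with the slow-frozen pool in Cy5 and -0.02 with it in Cy3, with a dye term of -0.17 ± 0.14 (SE). Normalized levels were 8.42 ± 0.24 in slow-frozen and 8.61 ± 0.15 in control pools (log2, mean ± SD, n = 4), a difference between both SDs in size. The fit gave -0.19 ± 0.14 (SE), with a 95% interval of -0.52 to 0.15 and an adjusted p of 0.9999 in limma. This was the lowest ratio of the members, and it stayed below 0 with any array left out, between -0.23 and -0.14, and under the 6 settings that recompute the ratio, between -0.34 and -0.08. Under median centring it was -0.34, with an adjusted p of 0.802, the lowest of any member probe under any setting. Probe 2 of FGFR2 read above the limit only in the array 4 pools, at 1.02 and 1.00 times, and its ratios lay between -0.04 and 0.15.

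FGFR1, which in the mouse is expressed throughout the inner cell mass, had array ratios closest to 0 of the tested members. Its probe 1 read 1.25, 1.05, 1.27 and 0.955 times the limit in slow-frozen pools and 1.20, 1.06, 0.930 and 1.03 times in control pools. These readings overlapped and 3 of 4 in each group passed the limit. The ratios were 0.03, 0.01, 0.13 and -0.03, and their SD of 0.0688 was among the smallest on the array, at percentile 1.26 of all tested probes. The fit gave 0.03 ± 0.14 (SE), with a 95% interval of -0.30 to 0.37. For readings this close to the limit the background correction draws ratios towards 0. Probe 2 of FGFR1 passed the limit in 3 of 8 readings.

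FGFR4 had a pair of probes in all pools, of which only probe 1 split by dye orientation. FGFR4 is a receptor best known from the liver. Probe 1 read 1.89, 2.58, 3.12 and 2.56 times the limit in slow-frozen pools and 2.79, 2.85, 1.60 and 2.75 times in control pools. Readings of the groups overlapped. Its ratios were -0.64 and -0.57 on the arrays with the slow-frozen pool in Cy5, and 0.35 and 0.87 on those with it in Cy3. The Cy5 pool was thus the lower one on all 4 arrays, whichever group it came from. The mean of both orientations was 0.00 ± 0.16 (SE), and the dye term was -0.61 ± 0.16 (SE) with an adjusted p of 0.922 in limma. This was the only one of 8 member probes with an unadjusted dye p under 0.05, beside 5.09% of all tested probes, and 0% of probes passed the adjustment for dye. That SE leaves out the difference between orientations, and without the dye term it became 0.26, with an interval of -0.60 to 0.61.

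Probe 2 of FGFR4 showed no such split. It read above the limit in every pool, between 1.24 and 3.17 times, and its ratios were -0.10, 0.18, 0.32 and -0.14, 2 of 4 above 0. The fit gave 0.06 ± 0.16 (SE), and its dye term was -0.02 ± 0.16 (SE). Both probes had fitted ratios near 0, which turned to -0.13 for probe 1 and -0.06 for probe 2 under median centring. FGFR3, a receptor best known as a brake on bone growth, read between 0.822 and 0.932 times the limit in slow-frozen pools and above the limit in 1 of 4 control pools, at 1.09 times. Each group had 24 readings over the 6 untested probes, and 5 cleared the limit among slow-frozen and 7 among control pools, with all 48 between 0.636 and 1.21 times.

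Of the feedback inhibitors and the ERK-induced factor, SPRY2 and DUSP6 were above the limit in every pool, and SPRY4 and ETV4 in 6 of 8 readings. SPRY2, a Sprouty protein that ERK induces and that damps signalling between receptor and RAS, read 10.3, 20.2, 7.61 and 6.70 times the limit in slow-frozen pools. In control pools it read 10.4, 4.62, 5.74 and 25.0 times the limit. The groups overlapped, with the highest slow-frozen reading on array 2 and the highest control reading on array 4, in the channel with the lowest limit. Its ratios were -0.10, 1.45, -0.17 and -0.36, so that SPRY2 was higher in the slow-frozen pool of array 2 alone and slightly lower on the other arrays. Normalized levels were 10.30 ± 0.35 in slow-frozen and 10.10 ± 0.50 in control pools (log2, mean ± SD, n = 4), which overlap. The fit gave 0.20 ± 0.25 (SE) with an adjusted p of 0.9999 in limma. Its 4 ratios had an SD of 0.836, at percentile 96.2 of all tested probes, against a median of 0.324. By Dixon's test at the 95% level it was the only one of 8 member probes with an outlying array, beside 5.22% of all tested probes.

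The ratio of SPRY2 rested on array 2. Without array 2 it was -0.18, and without array 1, when array 2 stood alone for its dye orientation, it was 0.59 ± 0.18 (SE, adjusted p = 0.9998 in limma), the only case in which a member passed the 1.5-fold rule. On array 2 the inner cell mass and epiblast markers were high as well. The median ratio of 10 inner cell mass and epiblast markers took the values -0.09, 0.81, 0.25 and 0.01 over the 4 arrays, with 9 of the 10 markers above 0 for array 2. NANOG, the epiblast transcription factor, had ratios of -2.19, 3.24, 2.59 and -0.39. The summed readings of that list were 175 to 319 times the limit in slow-frozen and 99.1 to 538 times in control pools, and on array 2 they were 319 and 99.1. By median ratio the other lineage lists did not stand apart on array 2. The median of 6 hypoblast markers was -0.44, -0.23, 0.15 and 0.13 over the 4 arrays, and that of 12 trophectoderm markers 0.41, 0.04, 0.00 and 0.10. Both departed most from 0 on array 1. PDGFRA, a hypoblast receptor, had ratios of -1.51, 2.06, 0.54 and -0.19. On array 2 it was 1 of 2 hypoblast markers of 6 above 0, with HNF4A at 1.68. GATA4, RSPO3, COL4A1 and LAMA1 were below 0 on array 2, at -0.58, -0.76, -0.44 and -0.03. The summed readings of hypoblast markers were 57.5 to 184 times the limit in slow-frozen and 41.8 to 239 times in control pools, and those of trophectoderm markers 930 to 2423 and 875 to 3632 times. On array 2 the sums were larger in the slow-frozen pool for these lists too, at 184 and 62.3 for hypoblast and 2423 and 1125 for trophectoderm. The limit there was 72.4 in Cy5, the slow-frozen channel, and 171.4 in Cy3, so these multiples depend on the channel. None of the trophectoderm, inner cell mass or hypoblast markers on the array was at 0 readings, and the part of cell composition in the SPRY2 ratio was not tested.

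SPRY4, the related Sprouty protein, also varied from pool to pool. It read 1.64, 1.33, 1.69 and 1.20 times the limit in slow-frozen pools and 1.84, 0.939, 0.855 and 2.61 times in control pools. All 4 slow-frozen readings passed the limit, 2 of the 4 control readings did, and the groups overlapped. The ratios were -0.22, 0.49, 0.41 and -0.45, 2 of 4 above 0, and the fit gave 0.06 ± 0.21 (SE), with a 95% interval of -0.44 to 0.55. The sign turned under mean spot signals, at -0.05, and without array 2 or array 3.

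DUSP6, the phosphatase that removes the activating phosphates from ERK, was read in every pool. It stood at 1.41, 3.14, 1.74 and 1.34 times the limit in slow-frozen and 1.38, 1.99, 1.57 and 2.79 times in control pools. The groups overlapped almost fully. The ratios were 0.01, 0.25, -0.14 and -0.31, and the fit gave -0.05 ± 0.14 (SE), with a 95% interval of -0.39 to 0.30. Array 2 again had the highest ratio and array 4 the lowest, as for SPRY2, with smaller values on both.

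ETV4, an ETS-family transcription factor that ERK signalling induces, was lower in the slow-frozen pool on array 2, where both Sprouty genes had their highest ratios. It read 1.18, 1.02, 1.27 and 0.984 times the limit in slow-frozen pools and 0.978, 1.34, 1.08 and 1.34 times in control pools. The groups overlapped close to the limit. The ratios were 0.27, -0.36, 0.04 and -0.25, with the slow-frozen pool of array 2 the lowest of the 4, and the fit gave -0.08 ± 0.17 (SE). On array 4 alone did all 4 feedback and ERK-induced genes have ratios of 1 sign, from -0.45 to -0.25.

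**Figure D3:**
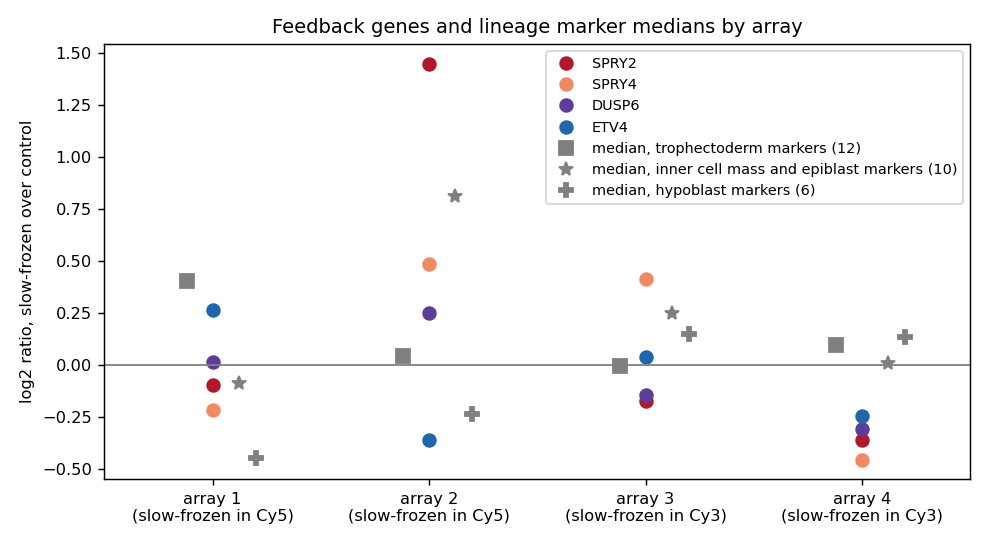
Ratios of SPRY2, SPRY4, DUSP6 and ETV4 on each array (coloured circles) beside the median ratio of trophectoderm, inner cell mass and epiblast, and hypoblast markers (grey), as log2 of slow-frozen over control. SPRY2 at 1.45 and the inner cell mass and epiblast median at 0.81 are the highest points, both on array 2, and ETV4 is at -0.36 there.

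Over the rest of the pathway the ratios were close to even. In 7 lists of genes ordered by role, 151 genes were listed, 137 were on the array and 105 were tested. Of these 105, 54 had a ratio above 0 and 51 below it, beside 48.9% of all tested genes above 0. In limma 0 passed the adjustment, and 4 of the 105 had an unadjusted p under 0.05, beside 1.89% of all genes. Their median ratio was 0.01. The 4 with an unadjusted p under 0.05 were SDC1, YWHAZ and IER3, with ratios above 0, and CBL, with a ratio below it. SDC1 and YWHAZ also had dye terms of 0.39 and 0.53, with the slow-frozen pool higher mainly where it was in Cy5. CBL was above the limit in 3 control readings and 1 slow-frozen reading, so it met the filter mainly through the group where it was higher.

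Other FGF ligands were poorly covered, 10 of 17 on the array being tested, with 6 above 0 and a median of 0.07. FGF22, a ligand of the FGF7 subfamily, at 0.21 ± 0.14 (SE) and FGF13, an intracellular FGF that does not act through the receptors, at 0.16 ± 0.30 had the highest ratios. FGF18 at -0.13 ± 0.18 and FGF6 at -0.15 ± 0.17 had the lowest. None of the 10 had an unadjusted p under 0.05, and FGF13 ranged from -0.76 to 1.00 between arrays. FGF22 was above the limit in 4 slow-frozen readings and 1 control reading. Of 13 co-receptors and carriers tested, 6 were above 0 and the median was 0.00. FLRT3, a membrane protein that binds FGF receptors, had the highest ratio, 0.43 ± 0.78, from array ratios of -1.86, 3.24, 1.28 and -0.95. It was thus high in slow-frozen pools on arrays 2 and 3 and low on arrays 1 and 4. The syndecans, heparan sulfate proteoglycans that present FGF to its receptors, lay at both ends, SDC1 at 0.38 ± 0.15 and SDC2 at -0.33 ± 0.18, and the proteoglycan HSPG2 was at -0.17 ± 0.31.

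Genes that build and sulfate heparan sulfate were 5 of 11 above 0, with a median of -0.04. SLC35B2, the transporter of the sulfate donor, at 0.19 ± 0.15 (SE) and HS2ST1, a 2-O-sulfotransferase, at 0.17 ± 0.14 were above 0 on all 4 arrays. HS2ST1 was above the limit in 3 slow-frozen and 2 control readings. The same sign on all 4 arrays was found for 7.86% of all tested probes. For these genes and those below it is not read as a result, since they were named for high or low ratios. The 6-O-sulfotransferases HS6ST2 at -0.17 ± 0.15 and HS6ST1 at -0.20 ± 0.21 were lowest, HS6ST1 by a ratio of -1.05 on array 4 beside 0.06 to 0.14 on the others. Of 12 adaptors and RAS proteins, 5 were above 0 and the median was -0.07. GAB2, a docking protein, was at 0.24 ± 0.14 and the RAS exchange factors SOS2 and SOS1 were at 0.13 ± 0.19 and -0.24 ± 0.19, so close relatives differed in sign. The brightest NRAS probe was at -0.28 ± 0.20, whereas its other probes were at 0.13 to 0.23.

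Of 20 genes of the RAF, MEK and ERK module, 11 were above 0 and the median was 0.03. The scaffold protein YWHAZ at 0.47 ± 0.18 (SE) and the phosphatase subunit PPP1CA at 0.35 ± 0.23 had the highest ratios, and the kinases MAP2K1, which is MEK1, at -0.22 ± 0.15 and RPS6KA1, which ERK activates, at -0.37 ± 0.17 the lowest. RPS6KA1 was below 0 on all 4 arrays. Of 14 further feedback genes and RAS inhibitors, 8 were above 0 and the median was 0.02. RASA2, which switches RAS off, was at 0.45 ± 0.20 and above 0 on all 4 arrays, and the ubiquitin ligases CBLB and CBL, which turn receptors over, were at 0.23 ± 0.15 and -0.39 ± 0.16. CBLB was above the limit in 3 slow-frozen readings and 1 control reading. The RAF inhibitor PEBP1 was at -0.30 ± 0.19.

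Transcription factors and early genes downstream of ERK, not all of them induced by it, were 13 of 25 above 0, with a median of 0.01. TRIB1, a pseudokinase, at 0.39 ± 0.17 (SE) was above 0 on all 4 arrays, and the early gene IER3 at 0.39 ± 0.15 on 3 of 4. ETV5, a relative of ETV4, was at -0.25 ± 0.21, and the ETS factor ELF1 at -0.23 ± 0.26 by its brightest probe and 0.05 by another. Counts on either side of 0 were thus about even. Median centring, which moved the median of all tested probes from 0.00 to -0.08, lowered the number of genes above 0 to 3 of the heparan sulfate list, 3 of the adaptors, 6 of the RAF, MEK and ERK module and 4 of the further feedback genes.

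**Figure D4:**
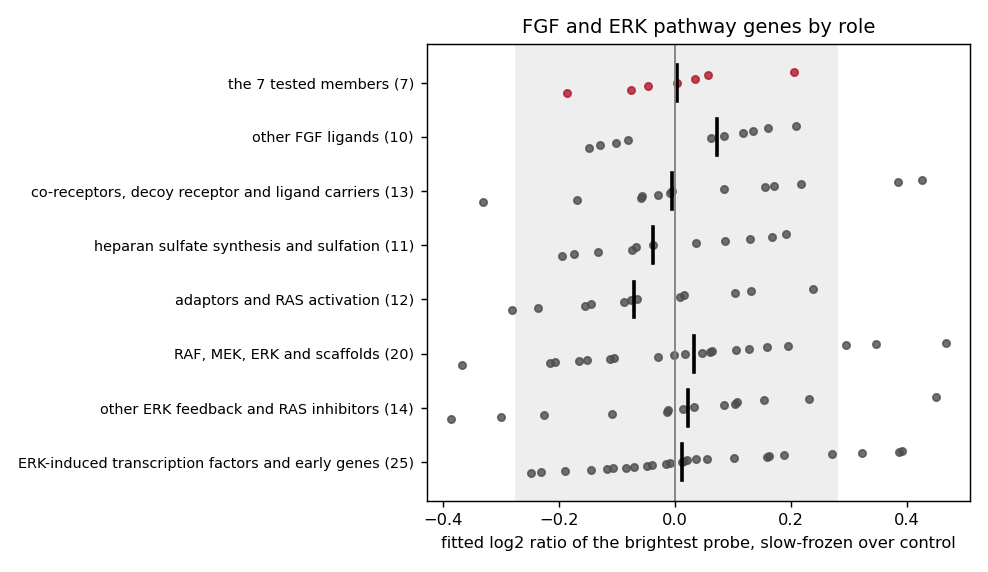
Fitted log2 ratio, slow-frozen over control, of the brightest probe of each tested gene (points) by role, with the number of genes in brackets and the median of each group as a black bar, and with a grey band from the 5th to the 95th percentile of all tested genes, -0.27 to 0.28. The medians lie between -0.07 and 0.07 under loess, and SDC1, FLRT3, YWHAZ, PPP1CA, RASA2, TRIB1 and IER3 are among the points above the band, and SDC2, NRAS, RPS6KA1, PEBP1 and CBL lie below it.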

How the data were processed

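RNA of pooled bovine blastocysts had been amplified by rounds of T7 in vitro transcription, coupled to Cy3 or Cy5 and hybridised to EmbryoGENE bovine arrays, all on 1 slide; the vitrified group was not analysed here. The deposited scanner files hold spot and local background intensity per dye as read by the authors, neither corrected nor normalized. The authors also deposited a table on the log2 scale, which correlated at 0.938 to 0.993 with Cy5 over Cy3 ratios of the scanner values and was used as an alternative; its column medians were -0.0023, 0.0005, -0.0023 and 0.0017. By the study's methods, local background was subtracted, each array was fitted with lowess and arrays were brought together by quantile normalization, without a statement that this table went through these steps. Of its columns, 0 were left unused.

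Median intensities were corrected with normexp (offset 50, which draws ratios of dim probes towards 0), normalized by loess within arrays with control spots at weight 0, and fitted with a treatment and a dye term, eBayes and Benjamini-Hochberg adjustment at 0.05 in limma 3.58.1 under R 4.3.3. Each SE is the moderated error of the treatment term and leaves out differences between dye orientations. Levels per group were taken after further quantile normalization of average intensities. The 4 arrays limit the precision. The fit was run on simulated data with known changes as a check of the code. Simulated noise was independent between arrays, whereas measured ratios of array pairs correlated between -0.28 and 0.04. That run therefore does not bear on the calls made here. Figures were drawn with matplotlib 3.10.9.

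Groups and dyes came from the labels, and the methods describe the pools as biological replicates from separate cycles. The slow-frozen and control pool of 1 array form a pair, which the ratio within the array keeps. The members and gene lists were chosen with earlier results of these data known. Named were all members with every probe and, of each pathway list, the 2 genes with the highest and the 2 with the lowest ratio of their brightest probe, plus markers that bear on a member. Probe symbols were updated for 1524 probes through RefSeq synonyms, and no coordinates were used. Alternatives covered background correction, normalization, spot statistic, deposited table, detection filter and limit, variance settings, dye term, pairing, choice of probe and leaving out each array.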

Additional observations from a re-analysis of the deposited data

Results flagged for a closer look

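Dixon's test was applied to the 4 array ratios of 36 probes, those of the tested members and of the named pathway genes, and 3 had 1 array apart from the rest. Chance flags about 1 in 20 groups of this size, but the pathway genes were named for their high or low ratios, which an outlying array can itself give, so the count is not read against it. SPRY2 stood at 1.45 on array 2, with the other arrays between -0.36 and -0.10. HS6ST1, a heparan sulfate 6-O-sulfotransferase, stood at -1.05 on array 4, with the others between 0.06 and 0.14. The brightest probe of NRAS, a RAS protein, stood at -0.99 on array 3, with the others between -0.10 and 0.03. Each concerns a single pool pair on 1 array, and what set it apart was not tested.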

How the results depend on the processing

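Under all 13 settings other than leaving out an array, 0 member probes passed the adjustment and 0 reached 1.5-fold. Over the whole array 0 probes passed the adjustment under any of them, so that count says nothing particular to the members. The 1.5-fold rule called few probes, from 14 higher and 3 lower of 30473 under mean spot signals to 27 and 501 under median centring. Of the 13 settings 7 leave the fitted ratio as it is, and under the 6 that recompute it 5 of 48 ratios turned sign. Median centring in place of loess, which moved the median of all tested probes from 0.00 to -0.082, turned FGFR4 to -0.13 (probe 1) and -0.058 (probe 2) and SPRY2 to -0.044, and mean spot signals turned FGFR4 probe 1 to -0.29 and SPRY4 to -0.049; either setting left 2 members above 0 in place of 4. With only probes above the limit in all 8 readings, 4 of the 7 genes remained, so the number above 0 was not compared. Median centring also left 3 genes above 0 in place of 5 in the heparan sulfate list, 3 in place of 5 among adaptors, 6 in place of 11 in the RAF, MEK and ERK module and 4 in place of 8 among further feedback genes, beside that shift of all probes.

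With each array left out in turn, 0 to 1 member probes reached 1.5-fold and 2 to 5 members lay above 0. Fitted ratios ranged from -0.0051 to 0.075 for FGFR1, -0.13 to 0.14 for FGFR4 probe 1, -0.051 to 0.178 for FGFR4 probe 2, -0.18 to 0.59 for SPRY2, -0.16 to 0.27 for SPRY4, -0.106 to 0.012 for DUSP6 and -0.232 to 0.082 for ETV4, each including a turned sign. Counts above 0 ranged from 4 to 9 for the heparan sulfate list and from 3 to 6 for adaptors, both extremes of 9 and 3 coming without array 4. Over all probes, the 1.5-fold rule gave 86 higher and 40 lower, but 27 and 501 under median centring, 14 and 3 under mean spot signals, and 215 and 151, 241 and 115, 189 and 306, and 547 and 395 without arrays 1 to 4 in turn.

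Without the replicate block, with the 8 channels fitted as separate samples, 0 members passed the adjustment, 0 reached 1.5-fold and 4 lay above 0. Over the whole array 0 of 30473 probes passed with or without the block, and the fitted ratios were the same. These counts therefore cannot show what the pairing by array does to the calls. Detection depended on the limit: of 112 member readings, 70 were above the 95th percentile of the negative controls, 53 above the 99th and 62 above their mean plus 2 SD. FGF2, FGF4, FGFR3 and the second probes of FGFR1 and FGFR2 had 0 readings above the 99th percentile, so no change in them could be read at this signal.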
